A study of Mus musculus with 21 samples.

Results

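The genes described here are the nuclear genes for the subunits of respiratory complexes II, III, IV and V and for cytochrome c, measured as heart RNA in mice given a high-fat diet, a renin vector, or both. They were chosen by symbol among the 19096 genes of the deposited gene matrix: Sdha to Sdhd, names that begin with Uqcr, Cyc1, Cycs, names that begin with Cox4 to Cox8, and names that begin with Atp5, with 1 pseudogene left out. This gave 49 genes, of which 4 belong to complex II, 9 to complex III, 1 is cytochrome c, 17 belong to complex IV and 18 to complex V. The rule uses symbols and no expression value, although it was set with earlier results of these data known. Of the 49, 47 had enough reads to be tested. Cox7b2 had at most 7 estimated reads in any library. A second gene also named Atp5o, which overlaps the main Atp5o gene, had at most 9, and reads between those overlapping genes are uncertain.

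The respiratory chain of the inner mitochondrial membrane carries electrons from NADH and succinate to oxygen and stores the energy as a proton gradient. Complex II (succinate dehydrogenase) passes electrons from succinate to ubiquinone, complex III passes them to cytochrome c, complex IV (cytochrome c oxidase) reduces oxygen, and complex V (ATP synthase) makes ATP from the gradient. Complex II is coded by nuclear genes alone, while complexes III, IV and V also need subunits coded by mitochondrial DNA, and the heart depends on this chain for most of its ATP.

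All hearts came from male C57BL/6NJ mice aged 8 to 10 weeks at assignment, per the series text. Diets lasted 10 weeks and were chow or a high-fat feed (HFD) in which fat supplied 60% of calories. Renin was delivered by an adeno-associated virus injected behind the eye 6 weeks before collection, and control mice had a null vector. The groups are named as in the sample titles: chow novirus (n = 4), chow Renin (n = 6), HFD novirus (n = 6) and HFD Renin (n = 5). The titles call the control novirus and the series text calls it a null vector, so whether control mice received a capsid is uncertain. Both hits together are the study's model of a heart failure in which ejection is preserved, and each hit alone is a further group. The promoter and serotype of the vector are not given in the sources used here.

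Library totals ranged from 18.7 to 29.3 M (mega) estimated reads, and chow novirus had the lowest, so depth and group cannot be told apart in comparisons with it. The 49 genes held 1.94% to 2.67% of reads, and genes coded by mitochondrial DNA 29.8% to 38.2%. All 12 cardiomyocyte markers looked for, among them Myh6, Tnnt2 and Myl2, had reads in every library. HFD novirus replicate 6 stood apart: of the 47 genes tested it had the highest level of its group for 33 and the lowest for 4, and its Sdha was 417 TPM against 720 to 854 TPM in the other 5 libraries. TPM (length-scaled transcript abundance) is a share corrected for transcript length. The main counts and gene values that use this library are also given without it.

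Upstream sequence was available for 37 of the 49 genes, as the 250 bases before the start in RefSeq (GRCm38.p6). Motifs of 3 families of regulators linked to respiratory genes were searched on both strands: the core GCATGCGC of the NRF1 site, CCGGAAGT for ETS factors, and AAGGTCA for estrogen-related receptors. The NRF1 core was in 16.22% of the member windows (6 of 37) and in 2.561% of the windows of 27025 genes. The ETS letters were in 8.108% (3 of 37) against 3.23%, and the estrogen-related receptor letters in 5.405% (2 of 37) against 4.703%. The longer NRF1 palindrome, which holds the core, was in 8.108% (3 of 37) against 0.877%. In all, 10 of 37 windows held at least 1 of the 3. The following stretches, printed on the strand of the gene with the matched letters in capitals, show 1 example for NRF1, 2 for ETS and 1 for estrogen-related receptors, cut where an annotated exon begins.
Cycs (chr6:50566570-50566642, minus strand, NRF1 core): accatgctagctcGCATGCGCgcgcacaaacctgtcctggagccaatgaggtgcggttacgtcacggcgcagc
Uqcr11 (chr10:80406831-80406921, minus strand, ETS): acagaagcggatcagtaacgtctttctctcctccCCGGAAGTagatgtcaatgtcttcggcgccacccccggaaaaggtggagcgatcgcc
Uqcrh (chr4:116075072-116075170, minus strand, ETS reversed): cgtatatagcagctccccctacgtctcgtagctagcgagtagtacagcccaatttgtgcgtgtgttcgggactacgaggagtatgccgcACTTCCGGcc
Atp5g3 (chr2:73911327-73911426, minus strand, the longer TNAAGGTCA reversed): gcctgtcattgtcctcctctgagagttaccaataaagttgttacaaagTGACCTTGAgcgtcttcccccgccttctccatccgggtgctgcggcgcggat
A match is only these letters in this window. In HFD Renin against HFD novirus, 7 of 10 tested genes with a match and 18 of 26 without one were lower by the test described next, where 5.08% of all genes were lower. The counts were 6 of 10 and 14 of 26 without HFD novirus replicate 6, and Uqcr11, shown above, was among the genes no longer called.

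The levels of the subunits differed widely within a complex. In chow novirus hearts, Atp5b, the catalytic beta subunit of ATP synthase, was the most abundant at 2880 ± 77.5 TPM (SD, n = 4), followed by Cox4i1 at 2169 ± 79.8 TPM and Atp5g1 at 2042 ± 133 TPM. Cycs was at 115 ± 8.37 TPM, and complex II genes ranged from 200 TPM for Sdhc to 805 TPM for Sdha. Sdhc codes for a membrane anchor of complex II and Sdha for its flavoprotein. Summed over complexes, chow novirus hearts held 1852 TPM of complex II, 5012 of complex III, 12200.3 of complex IV and 16508 of complex V. The sum of all 49 genes was 33807 to 37027 TPM in chow novirus, 32027 to 34676 in chow Renin, 31821 to 42043 in HFD novirus and 29561 to 31385 in HFD Renin. All 5 HFD Renin hearts were below all hearts of the other groups. In bulk tissue, fewer cells of a type and less RNA per cell cannot be told apart, and TPM are shares, so a fall here is a fall relative to the other transcripts of the heart.

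The comparison of HFD Renin with chow novirus asks what both hits did together. In it 14 of the 47 genes fell and 0 rose (edgeR quasi-likelihood test, adjusted p under 0.05 over 15216 genes), where 4.25% of all genes tested fell and 4.05% rose. The median log2 fold change was -0.21 over the 47 genes and 0.01 over all genes tested, and 45 of the 47 values were negative. By complex, 2 of 4 genes fell in complex II (Sdha and Sdhb), 1 of 9 in complex III (Uqcrc1), 4 of 16 in complex IV (Cox6a2, Cox6b2, Cox7a1 and Cox7b) and 7 of 17 in complex V (Atp5a1, Atp5b, Atp5c1, Atp5f1, Atp5g1, Atp5h and Atp5o). Cycs did not pass. For 16 genes every HFD Renin heart was below every chow novirus heart, against a background of 5.07% of all genes.

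Sdha, the flavoprotein that oxidizes succinate, was at 1602, 1586, 1456 and 1644 CPM in the 4 chow novirus hearts and at 1168, 1287, 1410, 1388 and 1198 CPM in the 5 HFD Renin hearts (CPM, counts scaled to library size after TMM normalization). The groups did not overlap. Sdha fell by 17.9%, a log2 fold change of -0.29 ± 0.09 (standard error, edgeR adjusted p = 0.0402). Uqcrc1, a core protein of complex III, was at 453, 462, 420 and 476 CPM against 343, 406, 386, 391.99 and 351 CPM. These groups did not overlap either, and Uqcrc1 fell by 17.1% (log2 -0.27 ± 0.07, edgeR adjusted p = 0.0146).

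In complex V, Atp5b was at 4409, 4518, 4300 and 4764 CPM in chow novirus and at 3397, 3935, 4099, 4114 and 3592 CPM in HFD Renin. All HFD Renin hearts were lower, by 14.9% in the fit (log2 -0.23 ± 0.07, edgeR adjusted p = 0.0315). Atp5o, the subunit OSCP of the stalk that joins the parts of ATP synthase, had the largest called fall of complex V: 578, 586, 520 and 613 CPM against 417, 446, 464, 488 and 430 CPM, without overlap. It fell by 21.8% (log2 -0.35 ± 0.08, edgeR adjusted p = 0.00923). The inhibitor of the enzyme, Atpif1, is no member of the symbol rule and had a log2 fold change of -0.36 that did not pass (edgeR adjusted p = 0.0835).

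In complex IV, Cox7a1, the isoform of subunit VIIa found in heart and skeletal muscle, was at 288, 318, 292 and 387 CPM in chow novirus and at 198, 232, 264, 286 and 246 CPM in HFD Renin. The highest HFD Renin heart was just below the lowest chow novirus heart, and the fall was 23.7% (log2 -0.39 ± 0.11, edgeR adjusted p = 0.0326). Cox6b2, best known as the testis isoform of subunit VIb, had the largest fold of all: 1.39, 1.33, 0.986 and 1.60 CPM against 0.759, 0.657, 0.682, 0.698 and 0.837 CPM. It fell by 45.2% (log2 -0.87 ± 0.25, edgeR adjusted p = 0.0312), but the values rest on 17 to 33 estimated reads per heart in these groups. Cox8a and Cox7a2l were the 2 genes with positive values, 0.04 ± 0.07 and 0.08 ± 0.06 on the log2 scale, and neither passed.

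The count of members that fell with both hits depended on single hearts. It was 5, 4 and 3 without chow novirus replicate 1, 2 or 4 and 21 without replicate 3, and 4, 9 and 5 without HFD Renin replicate 1, 2 or 5. The share of all genes that fell moved with it, to 2.44%, 2.24% and 2% without chow novirus replicate 1, 2 or 4, 4.35% without replicate 3, and 2.46%, 2.77% and 2.21% without those HFD Renin hearts. In these 7 fits the members' median was -0.25 to -0.19. With a score of circadian clock genes as a covariate 0 of the 47 genes, and 0 of all genes, were called, and the members' median was -0.10. That score, the mean log2 level of 10 night-phase genes minus that of 5 day-phase genes, was 3.39 to 3.70 in chow novirus, 2.87 to 3.22 in chow Renin, 3.14 to 3.48 in HFD novirus and 2.22 to 3.23 in HFD Renin. It did not overlap between chow novirus and HFD Renin, and its part in the result was not tested.

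**Figure D1:**
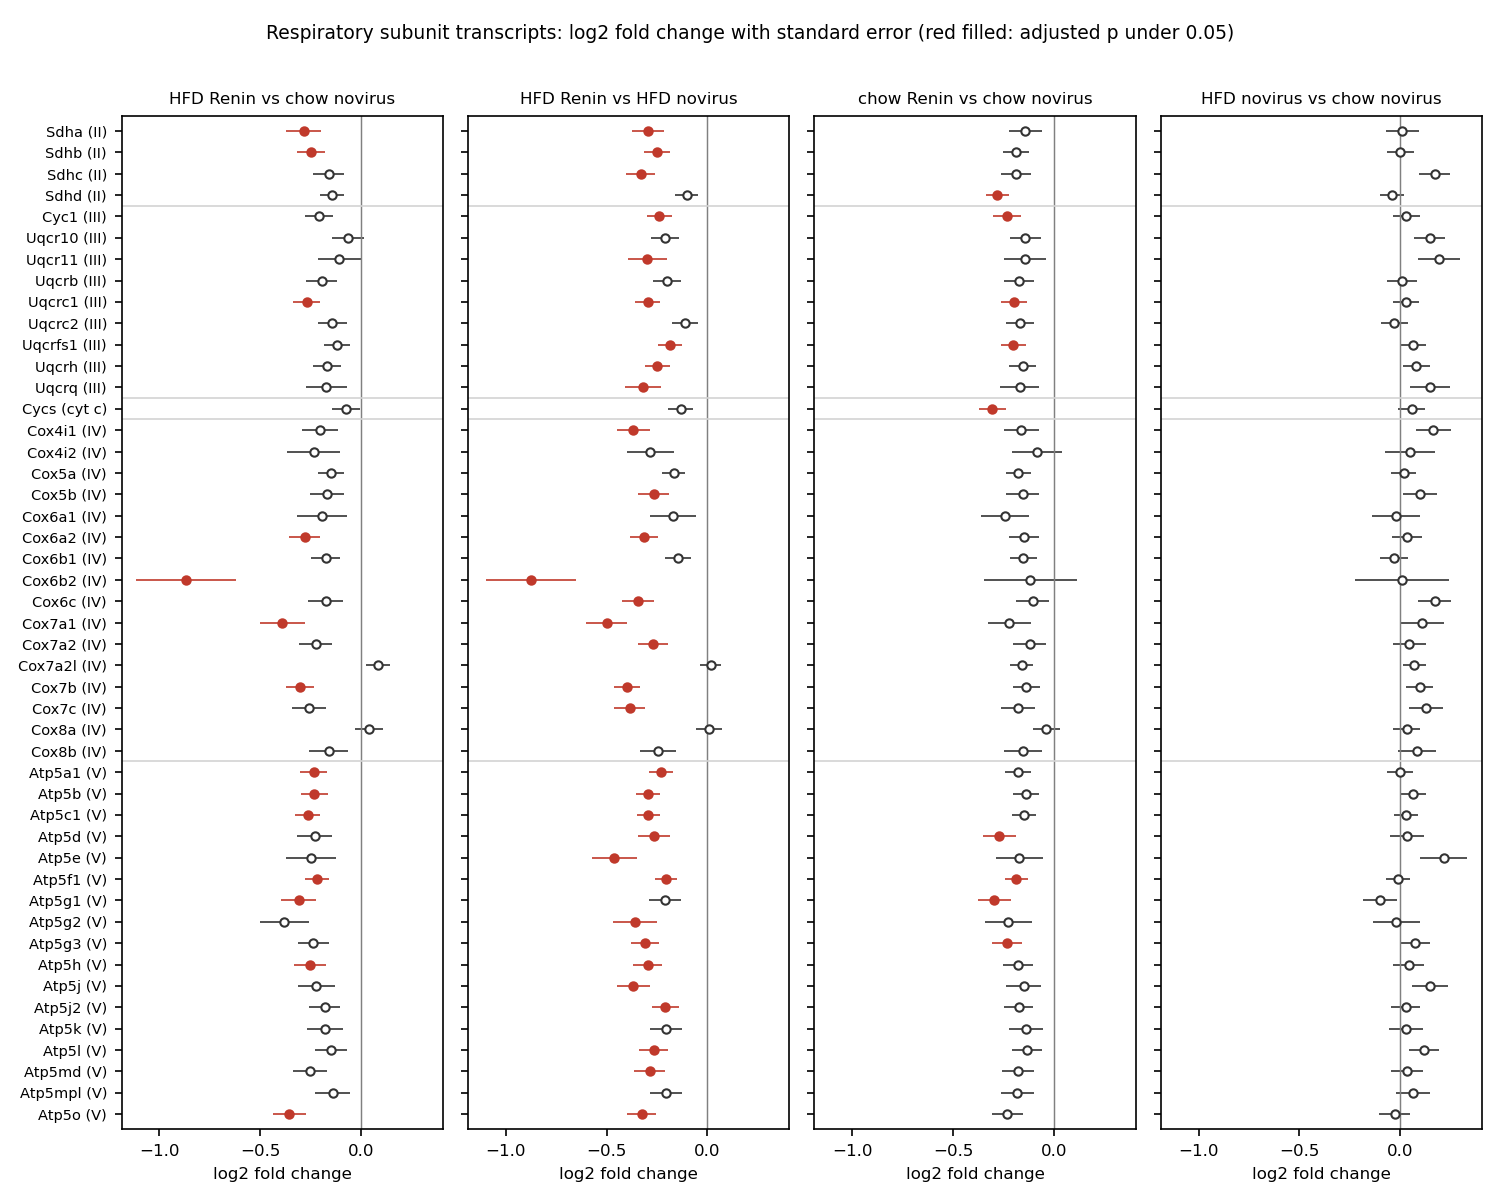
Log2 fold change (points) with standard error (bars) of the 47 tested genes in 4 comparisons, grouped by complex; red filled points passed an adjusted p of 0.05. In the 3 comparisons with a renin group most points lie left of 0, whereas in HFD novirus against chow novirus they lie around 0 and none is red.

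The comparison of HFD Renin with HFD novirus asks what renin did on the high-fat diet. Of the 47 genes, 32 fell and 0 rose in HFD Renin against HFD novirus, where 5.08% of all genes fell and 6.07% rose. The median log2 fold change was -0.27, and -0.01 over all genes. The genes that fell were 3 of 4 in complex II, 6 of 9 in complex III, 9 of 16 in complex IV and 14 of 17 in complex V, and again not Cycs. In 10 genes the groups did not overlap (1.52% of all genes). Of the 14 genes lower with both hits, 13 were lower here too, and the exception was Atp5g1. These comparisons share the HFD Renin hearts, so that overlap is not independent.

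In complex II, Sdhc had the largest called fall: 339, 351 and 383 CPM (lowest, median and highest) in HFD novirus against 249, 267, 305, 333 and 260 CPM in HFD Renin. The groups did not overlap. Sdhc fell by 20.5% (log2 -0.33 ± 0.07, edgeR adjusted p = 0.00519). Sdhd, the other membrane anchor, was at 235.8, 264 and 282 CPM against 249, 252, 240, 247 and 233 CPM, overlapped and did not pass (log2 -0.10 ± 0.06, edgeR adjusted p = 0.24). Without HFD novirus replicate 6, Sdha instead had the largest called fall of complex II, at log2 -0.36 (edgeR adjusted p = 0.0019). With all hearts the Sdha value was -0.30.

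In complex III, Uqcrq, a small subunit, had the largest called fold, from 256, 306 and 408 CPM to 218, 252, 255, 284 and 260 CPM. It fell by 19.9% with overlap (log2 -0.32 ± 0.09, edgeR adjusted p = 0.0266), and the 408 CPM came from HFD novirus replicate 6. Without that heart the log2 value was -0.23 and the adjusted p of edgeR 0.0559. Uqcrc1 went from 420, 463 and 506 CPM to between 343 and 406 CPM without overlap, a fall of 18.6% (log2 -0.30 ± 0.06, edgeR adjusted p = 0.0036). Uqcrb, the most abundant transcript of complex III per length, had a log2 value of -0.20 and did not pass (edgeR adjusted p = 0.0607).

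In complex IV, Cox7a1 went from 285, 342 and 439 CPM to between 198 and 286 CPM. The groups met at 285 and 286 CPM, and Cox7a1 fell by 29.3% (log2 -0.50 ± 0.10, edgeR adjusted p = 0.00371). Cox4i1, the common form of the largest nuclear subunit, went from 1119, 1291 and 1644 CPM to 919, 1073, 1090, 1141 and 1000 CPM and fell by 22.5% (log2 -0.37 ± 0.08, edgeR adjusted p = 0.00625). Cox6b2 was at 0.725, 1.38 and 1.80 CPM against 0.657 to 0.837 CPM, so that HFD novirus replicate 2 lay among the HFD Renin hearts, and it fell by 45.5% (log2 -0.88 ± 0.22, edgeR adjusted p = 0.0146).

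In complex V, Atp5e, the small epsilon subunit, had the largest called fold, from 181, 197 and 284 CPM to 130, 136, 171, 189 and 144 CPM. It fell by 27.4% with overlap (log2 -0.46 ± 0.11, edgeR adjusted p = 0.0105), and its log2 value was -0.36 without HFD novirus replicate 6, which held the 284 CPM. Without that heart the largest called fall of complex V was that of Atp5g2, at -0.39. Atp5b went from 4322, 4690 and 5028 CPM to between 3397 and 4114 CPM without overlap, a fall of 18.5% (log2 -0.30 ± 0.06, edgeR adjusted p = 0.00369). Atpif1 had a log2 value of -0.02.

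Without HFD novirus replicate 6, 26 of the 47 genes fell, with a median of -0.21, where 4.09% of all genes fell. The 6 genes whose call was lost without it were Uqcr11, Uqcrfs1, Uqcrq, Cox5b, Atp5d and Atp5j2, which left 3 of 4 genes in complex II, 3 of 9 in complex III, 8 of 16 in complex IV and 12 of 17 in complex V. The groups then did not overlap in 12 genes (2.48% of all genes), and 13 of the 14 genes lower with both hits were again lower. The log2 values without it were -0.33 for Sdhc, -0.28 for Uqcrc1, -0.42 for Cox7a1, -0.30 for Cox4i1, -0.77 for Cox6b2 and -0.30 for Atp5b, all called by edgeR, and -0.13 for Sdhd, -0.17 for Uqcrb and 0.02 for Atpif1, not called. Without HFD Renin replicate 1 or 5, 17 of the 47 genes fell, where 2.11% and 2.1% of all genes did. The count was 7 when only these 2 groups were fitted (1.56% of all genes fell), 10 with limma on log2(TPM + 1) (1.62%), which shifted the median of all genes by 0.11 and gave the members a median of -0.14, and 0 with the clock score as covariate, where the members' median was still -0.21 and 15 of all genes were called.

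**Figure D2:**
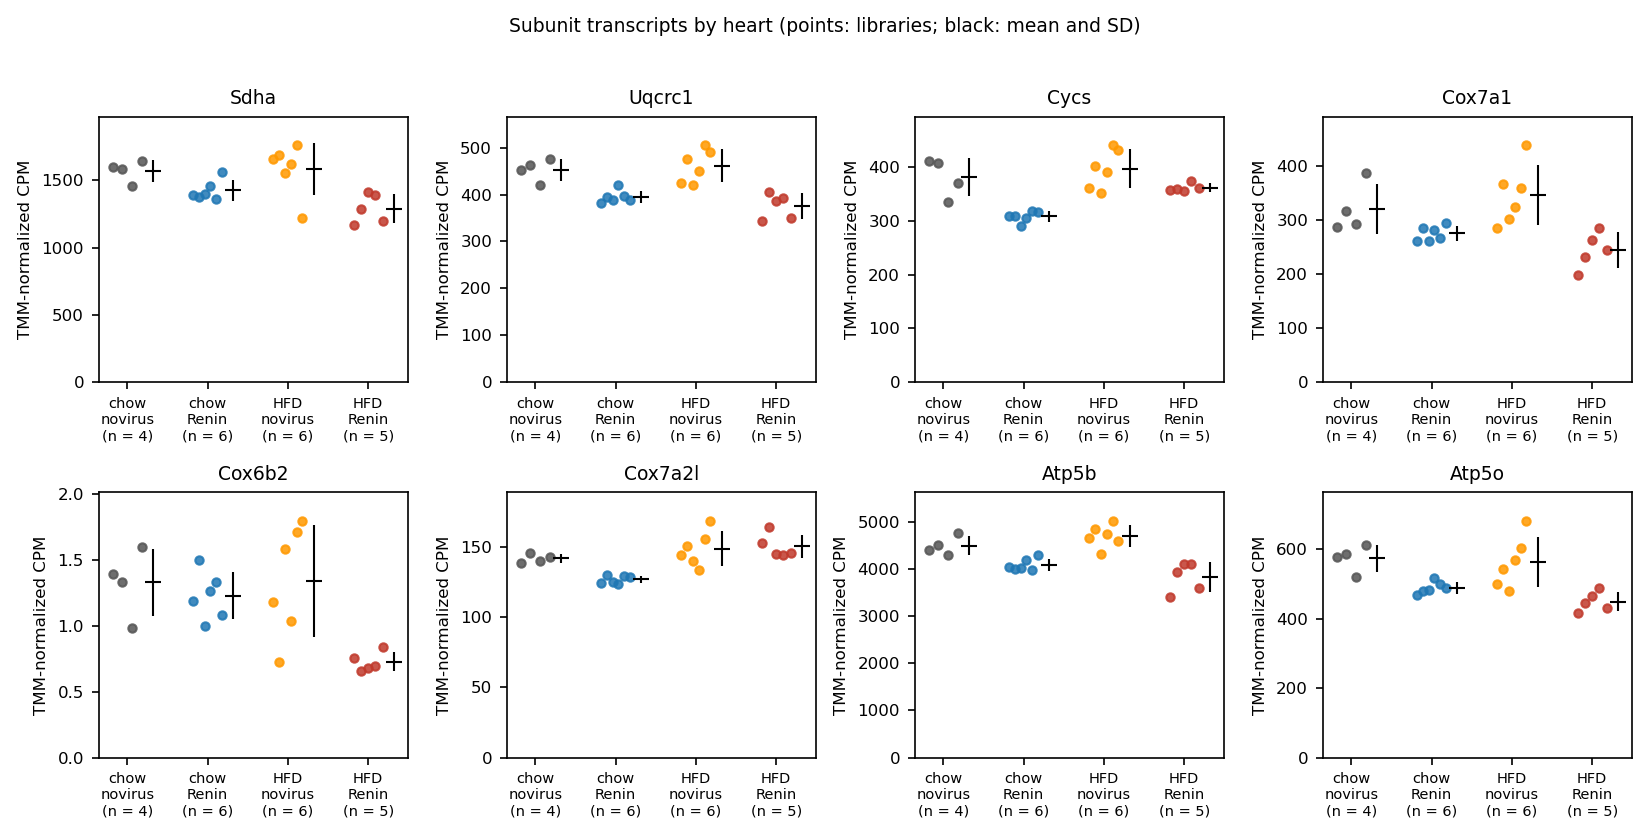
TMM-normalized CPM of 8 genes in each heart (points), with mean and SD per group (black); the axes start at 0. HFD Renin hearts are below chow novirus hearts for Sdha, Uqcrc1, Cox7a1, Cox6b2, Atp5b and Atp5o, while Cycs and Cox7a2l are lowest in chow Renin.

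Chow Renin was then compared with chow novirus, where depth and group cannot be told apart. All 47 values were negative, with a median of -0.17 against -0.03 over all genes, and 9 genes fell and 0 rose, where 3.36% of all genes fell and 10.1% rose. The genes were Cycs, Sdhd, Cyc1, Uqcrc1, Uqcrfs1, Atp5d, Atp5f1, Atp5g1 and Atp5g3, and no complex IV gene was among them (0 of 16 by edgeR). In 11 genes the groups did not overlap (4.75% of all genes). Uqcrc1 and Atp5f1 passed in this comparison and in both comparisons above. The comparison of both hits shares the chow novirus hearts with this one and the HFD Renin hearts with the other, while those 2 have no heart in common.

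Cycs, which codes for cytochrome c itself, was at 411, 407, 335 and 371 CPM in chow novirus and at 290, 309 and 318 CPM (lowest, median and highest) in chow Renin. No chow Renin heart reached a chow novirus heart, and Cycs fell by 19.1% (log2 -0.31 ± 0.07, edgeR adjusted p = 0.00198). Sdhd went from 295, 271, 246 and 268 CPM to 209, 225 and 232 CPM without overlap, a fall of 17.6% (log2 -0.28 ± 0.06, edgeR adjusted p = 0.00137). Cyc1, the heme protein of complex III that hands electrons to cytochrome c, was at 542, 549, 475 and 525 CPM against 426, 444 and 467 CPM and fell by 14.9% (log2 -0.23 ± 0.07, edgeR adjusted p = 0.0204). Atp5g1, 1 of the 3 genes for the ring subunit c, went from 878, 886, 741 and 837 CPM to 643, 679 and 733 CPM without overlap and fell by 18.5% (log2 -0.29 ± 0.08, edgeR adjusted p = 0.0171).

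In these same chow Renin hearts, 13 of 14 markers of central nervous tissue rose; their summed level was 93.7 to 101 CPM in chow novirus and 300.2 to 501 CPM in chow Renin, and 13 of the 14 had reads in every library of the study. With the score of those markers as a covariate 0 members were called, the members' median was -0.13, and 28 of all 15216 genes were called (0 of them lower), where 2048 were called without it. The part of that tissue in the result was not tested. Medians in this comparison were -0.19 for cardiomyocyte, -0.21 for endothelial, -0.23 for macrophage and -0.20 for fibroblast markers. In that order 12 of 12, 8 of 8, 8 of 8 and 6 of 8 values were negative, against 55.6% of all genes. Smooth muscle and pericyte markers had a median of -0.06 (5 of 8 negative) and blood markers 0.19 (1 of 6 negative). The part of cell content was not tested. The members called were 2 with the clock score as covariate (median -0.09), 3 with upper-quartile factors and 0 with limma on log2(TPM + 1) (median -0.07, 44 of 47 negative). Leaving out chow novirus replicate 1, 2, 3 or 4 gave 2, 2, 15 and 3 genes, where 1.23%, 1.13%, 4.44% and 2.26% of all genes fell, and leaving out chow Renin replicate 1, 2, 3 or 5 gave 3, 4, 2 and 4, where 1.57%, 2.29%, 1.62% and 2.14% fell.

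No member passed the test for the high-fat diet alone. In HFD novirus against chow novirus 0 of the 47 genes passed (edgeR), as with DESeq2 and all other settings tried, where 0.0657% of all genes passed and 1668 of 15216 had an unadjusted p under 0.05. The values ran from -0.10 for Atp5g1 to 0.21 for Atp5e, with a median of 0.04, and 38 of 47 were positive. Without HFD novirus replicate 6 the median was 0.01, 21 of 47 were negative, and the values were -0.14 for Atp5g1 and 0.11 for Atp5e. With limma on log2(TPM + 1) the direction turned: the members' median was -0.08 and 39 of 47 were negative, where the median of all genes was -0.10.

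Between the 2 renin groups, 3 genes were called. HFD Renin against chow Renin gave 2 higher and 1 lower among the 47, with a median of -0.02, where 9.8% of all genes rose and 12.8% fell, so the share was under that of all genes. Cox7a2l, a protein linked to the assembly of respiratory supercomplexes, was at 124, 127 and 130 CPM in chow Renin and at 153, 164, 145, 144 and 146 CPM in HFD Renin. The groups did not overlap, and it was 18.5% higher (log2 0.25 ± 0.05, edgeR adjusted p = 0.00158). The chow novirus hearts, at 139, 146, 140 and 143 CPM, lay above chow Renin and partly within HFD Renin. Cycs was at 357, 360, 356, 375 and 361 CPM in HFD Renin, all above the highest chow Renin heart at 318 CPM, and 17.3% higher (log2 0.23 ± 0.06, edgeR adjusted p = 0.00944). Cox6b2 was the gene that fell, from 0.998, 1.22 and 1.496 CPM, by 40.6% (log2 -0.75 ± 0.22, edgeR adjusted p = 0.0167). In this comparison 13 of 14 central nervous markers fell (median -1.85). Of other markers, 3 of 8 endothelial and 2 of 8 fibroblast genes rose, while 0 of 8 macrophage genes passed. Of 12 cardiomyocyte markers, 4 fell and 2 rose. The part of tissue content was not tested. With the central nervous score as covariate 0 members and 42 of all 15216 genes were called (0 of them higher), where 3440 genes were called without it. With limma on log2(TPM + 1) 0 members were higher and 9 lower, with a median of -0.13.

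The interaction, that is the renin effect under HFD less the renin effect under chow, was tested directly. In the main fit 0 of the 47 genes passed (edgeR), against 10.4% of all genes. A difference in the renin effect between diets was thus not shown by that fit for any of these genes. DESeq2 called 1 gene, and some other settings given below also called 1. The median was -0.10, and the lowest adjusted p of edgeR was 0.0683, for Cox7b at -0.26 ± 0.09. Cycs, Cox7a2l and Sdhd had positive values, 0.17, 0.18 and 0.18. Without HFD novirus replicate 6 the median was -0.05, Cox7b was at -0.22, Cycs at 0.20 and Sdhd at 0.15, and 1 gene passed, Cox7a2l at 0.22 (edgeR adjusted p = 0.0407).

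Of the 47 tested genes, 35 fell in at least 1 of the 3 renin comparisons above and 12 in none, where 9.5% of all genes tested fell in at least 1 of them. With HFD novirus replicate 6 left out of the comparison that uses it, the counts were 31 and 16. The 12 were Uqcr10, Uqcrb, Uqcrc2, Cox4i2, Cox5a, Cox6a1, Cox6b1, Cox7a2l, Cox8a, Cox8b, Atp5k and Atp5mpl. In the authors' deposited table, which does not state the group it compares with, 17 of the 49 genes had an adjusted p under 0.05, all 17 with values below 0; of all its genes 3.57% passed with values below 0 and 3.22% with values above 0. Of the 12 genes above, 7 belong to complex IV, 3 to complex III and 2 to complex V.

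Several complex IV subunits exist as a heart and muscle form and a form of most other tissues. As shares of TPM, the muscle form made up 86.6% to 90.5% of Cox6a (Cox6a2), 80.9% to 86.8% of Cox7a (Cox7a1 of Cox7a1 and Cox7a2) and 85.2% to 89.9% of Cox8 (Cox8b) over the 21 hearts. Group means of the Cox7a1 share were 84.4% ± 1.64 (SD, n = 4) in chow novirus, 83.6% ± 0.894 (n = 6) in chow Renin, 85.1% ± 1.01 (n = 6) in HFD novirus and 82.8% ± 1.08 (n = 5) in HFD Renin. All HFD Renin hearts, at 80.9% to 83.7%, were below all HFD novirus hearts, at 83.9% to 86.8%, and both groups overlapped those on chow. The HFD novirus share without replicate 6 was 85.0% ± 1.123 (SD, n = 5), with the same lowest heart. In HFD Renin against HFD novirus the log2 values were -0.50 for Cox7a1 and -0.27 ± 0.07 for Cox7a2 (edgeR adjusted p = 0.0227), and -0.31 ± 0.07 for Cox6a2 (edgeR adjusted p = 0.00659) and -0.17 ± 0.11 for Cox6a1 (edgeR adjusted p = 0.349). For the pair of Cox8 the values were -0.24 ± 0.09 for Cox8b (edgeR adjusted p = 0.0769) and 0.01 ± 0.06 for Cox8a (edgeR adjusted p = 0.957), and the sign of Cox8a changed with the scaling (-0.01 with upper-quartile factors). Without HFD novirus replicate 6 the log2 values were -0.20 for Cox7a2, -0.27 for Cox6a2, -0.05 for Cox6a1, -0.18 for Cox8b and 0.05 for Cox8a, and the calls of these genes were the same. Cox4i2, the form of lung and low oxygen, was 0.241% to 0.391% of Cox4, at 2.86 to 4.60 CPM. Cox6b2 was 0.578% to 0.687% of Cox6b in chow novirus and 0.324% to 0.465% in HFD Renin, without overlap.

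The c ring of ATP synthase is built from identical proteins made by Atp5g1, Atp5g2 and Atp5g3. Atp5g1 gave 48.9% to 55.1% of their TPM, Atp5g3 43.7% to 49.8% and Atp5g2 0.86% to 1.33%. In HFD Renin against HFD novirus Atp5g3 fell by 19.4% (log2 -0.31 ± 0.07, edgeR adjusted p = 0.00625) without overlap and Atp5g2 by 22.1% (log2 -0.36 ± 0.11, edgeR adjusted p = 0.0364), while Atp5g1 had -0.21 ± 0.08 (edgeR adjusted p = 0.0831). Without HFD novirus replicate 6 these values were -0.26 for Atp5g3, -0.39 for Atp5g2 and -0.17 for Atp5g1, with Atp5g3 and Atp5g2 called. Against chow novirus it was Atp5g1 that passed, at -0.31 ± 0.09 (edgeR adjusted p = 0.0286), with Atp5g3 at -0.24 (edgeR adjusted p = 0.0532) and Atp5g2 at -0.38 (edgeR adjusted p = 0.0527) just outside the threshold. The Atp5g1 share was 53.1% to 54.5% in chow novirus and 48.9% to 52.9% in HFD novirus, the pair of groups with no overlap, and the HFD novirus range was the same without replicate 6.

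Atp5c1, the gamma subunit that turns within ATP synthase, has an exon of 37 bases (exon 9, chr2:10056770-10056806 on GRCm38) that heart and skeletal muscle are known to skip. It is in the annotated transcripts 202 and 203 and not in 201. Forms with the exon made up 21.3% ± 1.38 of estimated reads (SD, n = 4) in chow novirus, 22.0% ± 1.36 (n = 6) in chow Renin, 19.9% ± 2.001 (n = 6) in HFD novirus and 24.95% ± 3.13 (n = 5) in HFD Renin. The 5 HFD Renin hearts ran from 21.2% to 29.0% and overlapped chow novirus, at 20.3% to 23.3%, while HFD novirus ran from 15.9% to 21.2%. Without replicate 6 HFD novirus was at 20.7% ± 0.325 (SD, n = 5), from 20.3% to 21.2%. No test was run on these shares, which are estimates of the quantifier.

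**Figure D3:**
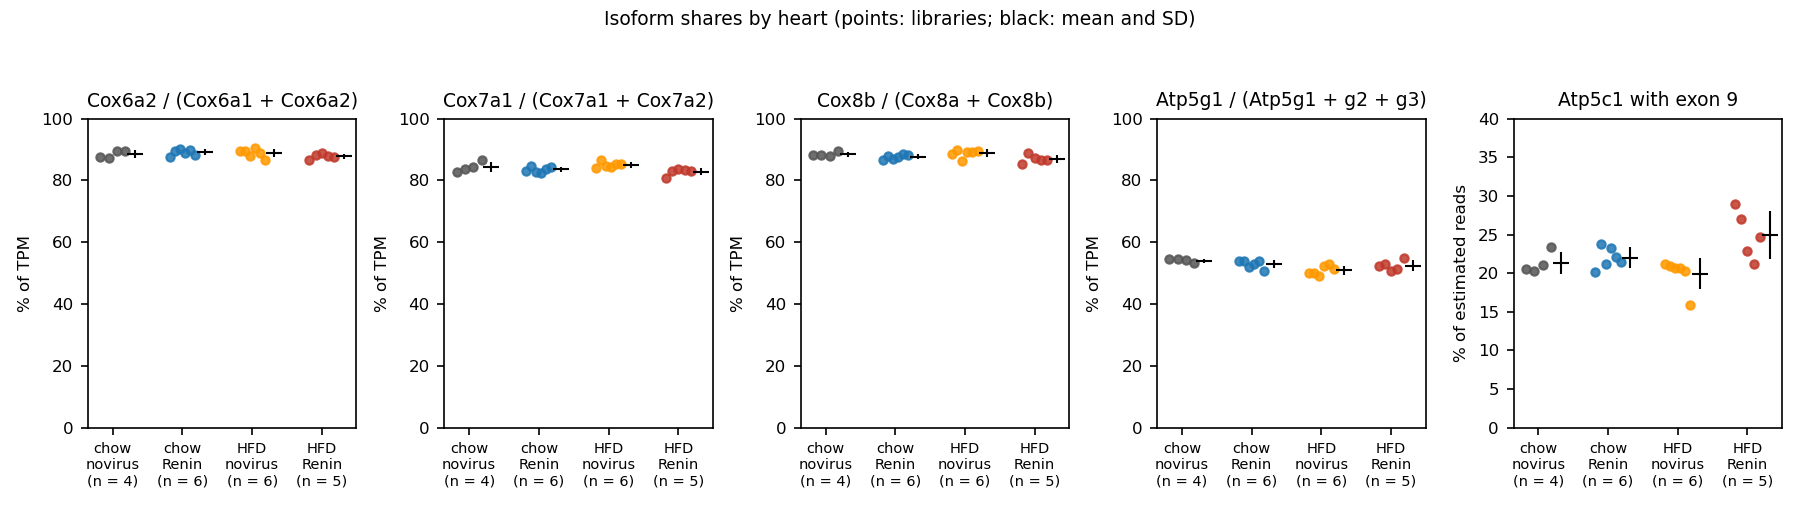
Share of 1 isoform in each heart (points), with mean and SD per group (black): 4 panels in percent of TPM of the named genes, and the last in percent of Atp5c1 estimated reads with exon 9. The muscle forms stay above 80.9% in all hearts, and the exon 9 share is highest, at 29.0%, in an HFD Renin heart.

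Related gene groups moved in part with the members. Of 36 nuclear genes of complex I, the NADH dehydrogenase, 4 fell in HFD Renin against chow novirus (median -0.18), 22 against HFD novirus (median -0.23) and 5 in chow Renin against chow novirus (median -0.16), and 0 rose in these comparisons, where 4.25%, 5.08% and 3.36% of all genes fell. The 22 became 12 without HFD novirus replicate 6 and 3 with limma on log2(TPM + 1), and all 3 counts became 0 with the clock score as covariate. The 5 also became 0 with the central nervous score as covariate. Ndufs7 had the lowest value with both hits, -0.42 ± 0.10 (edgeR adjusted p = 0.00884). The 6 subunits of complexes III to V that mitochondrial DNA codes gave 0 calls by edgeR in any of the 6 comparisons. Their median was 0.05 with both hits, where that of the members was -0.21, and -0.18 in HFD Renin against HFD novirus, with mt-Co2 lowest at -0.25 ± 0.09 (edgeR adjusted p = 0.0635; -0.23 without HFD novirus replicate 6). The difference between nuclear and mitochondrial subunits was not tested.

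Of 37 assembly factors of complexes II to V and cytochrome c, 1 rose and 1 fell with both hits, and the median was -0.03; these shares were under those of all genes (4.05% and 4.25%). Cox19, which acts in copper delivery to complex IV, rose (log2 0.49 ± 0.12, edgeR adjusted p = 0.0114), from 31.0 to 34.8 CPM in chow novirus to 38.4 to 60.9 CPM in HFD Renin. Cox10, which makes the heme of complex IV, fell (log2 -0.31 ± 0.08, edgeR adjusted p = 0.0214). In chow Renin 8 of the 37 fell and 0 rose, led by Cox10 at -0.43 ± 0.08 (edgeR adjusted p = 0.000345), and among them were Bcs1l and Lyrm7, which insert the iron-sulfur protein into complex III. Against HFD novirus, HFD Renin had 2 higher (Cox19 and Coa5) and 2 lower (Cox10 and Fmc1), near the shares of all genes (6.07% and 5.08%), and Fmc1 was not called without HFD novirus replicate 6 (edgeR adjusted p = 0.053). Against chow Renin, HFD Renin had 11 higher and 0 lower, where 9.8% of all genes rose, as against 3.36% that fell for the 8 in chow Renin. With the central nervous score as covariate both of these counts were 0, and with limma on log2(TPM + 1) they were 2 and 0.

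Among 18 transcription regulators of respiratory genes, 0 passed with both hits (edgeR). Their median was -0.09 with both hits, where 8 values were positive and 10 negative. It was -0.13 in chow Renin against chow novirus (2 positive, 16 negative) and 0.07 in HFD Renin against HFD novirus (11 positive, 7 negative). Esrra, the estrogen-related receptor alpha, fell in chow Renin against chow novirus (log2 -0.27 ± 0.08, edgeR adjusted p = 0.0195) and in HFD Renin against HFD novirus (log2 -0.25 ± 0.07, edgeR adjusted p = 0.0301). The second of these calls was lost without HFD novirus replicate 6 (log2 -0.22, edgeR adjusted p = 0.0619), and the first with the central nervous score as covariate, with the clock score and with limma. Its level was 148.6 to 185 CPM in chow novirus, 128 to 153 in chow Renin, 150 to 191 in HFD novirus and 125 to 161 in HFD Renin, so the ranges overlapped in both. Ppargc1a, a coactivator of mitochondrial biogenesis, had log2 values of -0.18, -0.34 and -0.29 in HFD Renin against chow novirus, chow Renin against chow novirus and HFD Renin against HFD novirus, and none passed (-0.29 in the last without HFD novirus replicate 6).

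Of 12 cardiomyocyte markers, 6 fell and 0 rose with both hits, where 4.25% of all genes fell, and 4 of the 12 values were positive. Among those that fell were Myh6 at -0.48 ± 0.08 (edgeR adjusted p = 0.0011) and Tnnt2 at -0.43 ± 0.08 (edgeR adjusted p = 0.00344). The summed level of the 12 was 68785 to 82088 CPM in chow novirus and 60509 to 65829 CPM in HFD Renin. Against HFD novirus 5 fell, with a median of -0.08 over the 12, where 5.08% of all genes fell, and 1, Ttn, rose (not called without HFD novirus replicate 6, edgeR adjusted p = 0.0746), with summed levels of 66694 to 76875 CPM in HFD novirus. Of 8 fibroblast markers 0 passed in either comparison (edgeR), with medians of 0.48 and 0.32. The summed level of 7 atrial markers was 73.0 to 944 CPM in HFD novirus (median 111) and 164 to 1024 CPM in HFD Renin (median 719), and 1 of 6 tested rose there, Nppa (log2 2.40 ± 0.64, edgeR adjusted p = 0.024), a gene for a natriuretic peptide. Of the 6 atrial markers tested, 4 had negative values, and the median log2 value was -0.06. In the same comparison 1 gene each fell among 8 smooth muscle and pericyte markers (Kcnj8), 6 brown adipose markers (Plin5) and 4 fast skeletal muscle markers (Tnni2). Cytosolic ribosomal protein genes were taken as another abundant group of short transcripts. With both hits 1 of 81 was lower (median -0.05, 62 of 81 negative). Against HFD novirus 1 was higher and 1 lower of 81 (median -0.10, 75 of 81 negative). The part of cell content in the members' values was not tested.

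**Figure D4:**
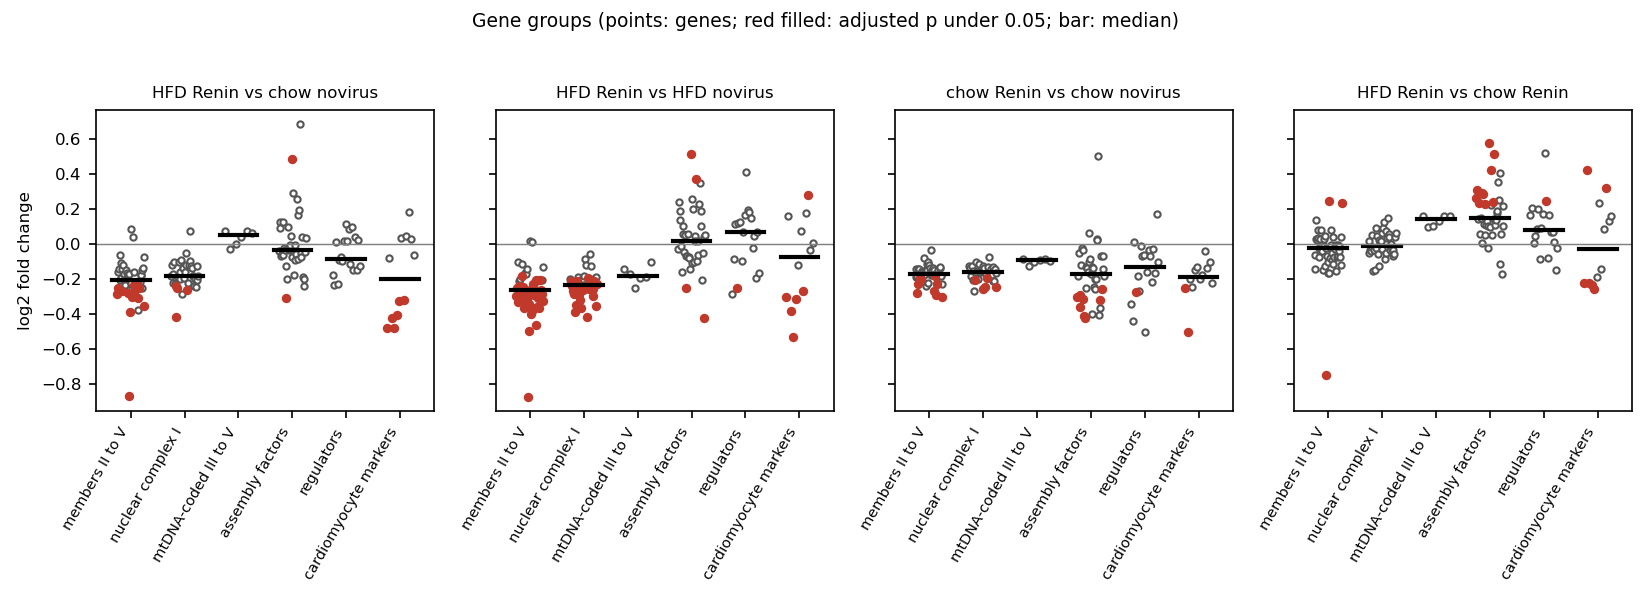
Log2 fold change of each gene (points; red filled, adjusted p under 0.05) in 6 gene groups and 4 comparisons, with the median of each group as a bar. The medians of the members and of the nuclear complex I genes lie below 0 in the 3 left panels, with a few single genes above 0, and near 0 in HFD Renin against chow Renin, while the genes coded by mitochondrial DNA lie near 0 with both hits, at a median of 0.05.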

How the data were processed

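RNA of 21 hearts was sequenced as 1 library each, and groups came from the sample titles. Per the submitters' processing notes, Salmon 1.10.2 and DESeq2 1.40.2 were used with GRCm38; options are not given in the sources used here. The authors deposited a transcript table per library. Per the file headers and values it holds estimated counts, not normalized, although a column name calls them raw, and TPM. A deposited gene matrix gave the symbols, its signal was not used, and per the file headers it gives the authors' log2 fold change and adjusted p-value.

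Estimated counts were summed to GENCODE M21 genes (97.95% of 119215 transcripts matched; unmatched ones held 0.854% to 0.925% of reads) and rounded. The fit used edgeR 4.0.16 in R 4.3.3: TMM (factors 0.886 to 1.09), filterByExpr (15216 genes), 1 term per group over 21 libraries, robust quasi-likelihood F tests, and Benjamini-Hochberg adjustment at 0.05 over all genes tested. The test had been laid out for counts, and rounded estimates took their place. The common biological coefficient of variation was 0.154. Standard errors are the absolute log2 fold change over the square root of F. The steps were checked on simulated data for HFD Renin against chow novirus, with planted changes larger than those of any member in the main fit. Recovery of changes as small as those of the members was not checked. Alternatives were DESeq2 1.42.0, upper-quartile factors, no filter, libraries thinned to the smallest total, totals without mitochondrial genes, the 2 groups alone, a replicate block, clock and central nervous scores as covariates, limma 3.58.1 on log2(TPM + 1), and leaving out each library.

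The members and gene lists were chosen with earlier results of these data known. Genes with full values are the largest called and the most abundant of each complex, the isoform pairs, the subunit c genes and Atpif1, and genes called against the majority. Sdhb, Sdhd, Cyc1, Uqcrfs1, Cox7a2l, Cox7b and other members named beside counts were picked after their values were seen, as were genes of the lists. Libraries are from separate mice per the series text; pairs within a group differed by more than counting noise.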

Additional observations from a re-analysis of the deposited data

Results flagged for a closer look

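In 136 groups of member values (a gene or sum in a group of 4 to 6 hearts), 9 had a heart whose gap to the nearest other was large for the range of the group, and about 1 in 20 is flagged by chance. Chow Renin replicate 4 was highest for Cox6a2 at 609.98 CPM (others 566 to 582), Cox7a2 at 145 CPM (others 125 to 133) and Sdhb at 619 CPM (others 551 to 575). Chow novirus replicate 3 was lowest for Atp5g3 at 779 CPM (others 911 to 925), Atp5f1 at 641 CPM (others 729 to 735) and Atp5d at 263 CPM (others 320 to 329). HFD novirus replicate 6 was highest for Cox7a2 at 186 CPM (others 134 to 153) and for the summed TPM of the members at 42043 (others 31821 to 33563), and lowest for the Atp5c1 share with exon 9 at 15.9% (others 20.3% to 21.2%).

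The effect of renin differed between diets by edgeR's interaction test for 7 assembly factors and 1 regulator, all with more positive values on the high-fat diet, where 10.4% of all genes passed in either direction. In the same interaction 13 of 14 central nervous markers were lower. With the central nervous score as covariate 0 of these 8 genes were called, nor was any other gene with a positive value (0 of 15216 higher, 24 lower). In that fit the log2 differences were 0.81 for Taco1, 0.54 for Lyrm7, 0.43 for Coa5, 0.27 for Sdhaf2, 0.17 for Tfam and 0.16 for Sdhaf4, and those of Bcs1l and Cox19 turned sign, to -0.05 and -0.13. Lyrm7 and Tfam were not called without HFD novirus replicate 6. The log2 differences were 0.42 for Sdhaf2 (adjusted p = 0.0211), 0.50 for Sdhaf4 (adjusted p = 0.00866), 0.37 for Bcs1l (adjusted p = 0.034), 0.46 for Lyrm7 (adjusted p = 0.0378), 0.60 for Cox19 (adjusted p = 0.0101), 0.63 for Coa5 (adjusted p = 0.00268), 0.75 for Taco1 (adjusted p = 0.0171) and 0.35 for Tfam (adjusted p = 0.0347). Sdhaf2 and Sdhaf4 serve complex II, Bcs1l and Lyrm7 complex III, and Cox19, Coa5 and Taco1 complex IV, while Tfam packages mitochondrial DNA.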

How the results depend on the processing

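Depth kept Cox7b2 and the second Atp5o out of the test and, among the 47 genes tested, was lowest for Cox6b2, at 17 to 41 estimated reads per heart, and groups of 4 to 6 hearts limit every call; the cause of the changes below was not tested. The members called, 14 with both hits, 9 for renin on chow, 0 for the diet alone, 32 for renin on HFD, 3 for the diet under renin and 0 in the interaction, became in the same order 8, 5, 0, 29, 3 and 0 with no filter, 9, 15, 0, 7 and 5 with the 2 groups alone (no interaction), 19, 14, 0, 37, 4 and 1 with DESeq2, 18, 3, 0, 35, 5 and 1 with upper-quartile factors, 14, 8, 0, 30, 3 and 1 with thinned libraries, 15, 9, 0, 32, 4 and 0 without mitochondrial genes, 0, 2, 0, 0, 3 and 1 with the clock score, 9, 0, 0, 29, 0 and 0 with the central nervous score, and 15, 0, 0, 10, 9 and 0 with limma on log2(TPM + 1). Leaving out 1 library gave 3 to 21, 2 to 15, 0, 17 to 36, 2 to 4 and 0 to 1. These counts stand without the share of all genes called, which also moved between settings, as given above for some of them. Same-numbered libraries of different groups had correlations of -0.23 to 0.42 over 28 pairs. Their median was 0.08, against -0.02 for different numbers, which does not settle whether replicate numbers pair the hearts. A replicate block gave 19, 17, 0, 29, 3 and 0.

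These signs turned. With limma: Sdha 0.0154, Cox4i2 0.0118 and Cox8a 0.0570 for renin on chow, Cycs 0.00183 and Atpif1 0.0977 for renin on HFD. With the clock score: Sdhc 0.0275 and Cox8a -0.00898 with both hits, Cox8a -0.0223 and Cox7a2l -0.0228 for renin on HFD, Atp5e 0.0131 for renin on chow. For renin on chow, with the central nervous score: Cox6b2 0.239, Cox8a 0.0402 and Cox7a2l 0.0376; with thinning, Cox6b2 0.00493. With upper-quartile factors, for renin on HFD: Cox8a -0.0118 and Cox7a2l -0.00511. Leaving out 1 library for that comparison gave Cox8a -0.0341 to 0.0474, Cox7a2l -0.0171 to 0.0548 and Atpif1 -0.100 to 0.0613.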
